A study of Mus musculus with 6 samples.

Results

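The 45 genes described here code for proteins that build ribosomes. They were taken by name from a list of ribosome biogenesis genes that was drawn up with earlier results of these data known, and all 45 were found among the 18512 entries of the deposited count table. The counts came from RNA-seq of NMuMG cells, an established epithelial line from mouse mammary gland, sequenced as single reads of 50 bases. Cells of all groups were starved of serum for 4 h. One group then received DMSO, the vehicle. Another received TGF-β at 5 ng/ml, which drives these cells into epithelial-mesenchymal transition (EMT). The last received TGF-β at 5 ng/ml together with 2APB at 50 uM, 2-aminoethoxydiphenyl borate, a compound used to block store-operated calcium entry. Treatment lasted 24 h by the study's account of its sequencing, but its methods have 2APB given ahead of TGF-β, so the order is uncertain. Each group had 2 libraries, described as replicates without stating how the cultures were separated, so the tests measure the spread between these samples. The samples include no group with 2APB alone.

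Ribosomes are assembled in the nucleolus, where RNA polymerase I transcribes the precursor of the ribosomal RNA (rRNA). Small nucleolar ribonucleoproteins (snoRNPs) modify this precursor, those of the box C/D class by methylation and those of the box H/ACA class by pseudouridylation. Large assemblies of proteins then fold, cut and export the precursors of the small and the large ribosomal subunit. Many of these genes are known targets of the transcription factor MYC, and their expression is usually high in growing cells.

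Total counts per library ran from 71840570 to 79473182, and all 45 genes were among the 13353 genes tested. Counts were scaled by the TMM method of edgeR, and values below are normalized counts at the mean library size unless stated otherwise. Epithelial markers, 12 of 13 in the table, summed to 541811 to 576673 in DMSO, 711122 to 834196 with TGF-β and 1320309 to 1389124 with TGF-β+2APB, where Grhl2 was at 0. These sums were carried mainly by Krt8 and Krt18, and of the 9 tested 5 were called lower than DMSO with either treatment (Epcam, Cdh1, Krt19, Ocln and Elf3), against 3 higher with TGF-β and 4 with TGF-β+2APB. Of these, Cdh1 was present in all libraries, with 91180 and 90601 normalized counts in DMSO and 35058 and 41060 with TGF-β+2APB. Of the 13 mammary luminal and basal markers 10 were in the table, their sums were 230 to 246 in DMSO, 440 to 510 with TGF-β and 501 to 535 with TGF-β+2APB, and Krt14 was at 0 in DMSO and Oxtr with TGF-β. Hepatocyte markers, all 12 in the table, summed to 491677 to 505272, 219041 to 344047 and 540600 to 604170 in the same order. These sums were carried mainly by Apob, at 368528 and 364439, 198639 and 329290, and 531964 and 592557. Of the 9 tested, 8 were called lower than in DMSO with either treatment, all but Apob. Alb (albumin) had 31570 and 28821 in the DMSO libraries, 94 and 42 after TGF-β, and 40 and 20 after TGF-β+2APB, where Apoc3, Fga, Tat and Cps1 were at 0. Macrophage markers, 8 of 8 in the table, summed to 3167 to 5708 in DMSO, 1884 to 2080 with TGF-β, and 655 and 33377 in replicates 1 and 2 of TGF-β+2APB, with Lyz2 at 156 and 28668. Fibroblast markers, 9 of 10 in the table, summed to 179 to 198, 2367 to 2393 and 2502 to 3122, with Col1a2, Thy1 and Twist1 at 0 in DMSO. With either treatment these sums were carried mainly by Col1a1 and Pdgfrb. Col1a2, Col3a1, Dcn, Thy1 and Twist1 stayed at 12 or less in every library. Endothelial markers, 7 of 8 in the table, summed to 19 to 35, 58 to 62 and 273 to 432, with Kdr and Emcn at 0 in DMSO and with TGF-β. The endothelial sums with TGF-β+2APB were carried mainly by Vwf, at 245 and 379. In bulk samples fewer cells of a type and less RNA per cell cannot be told apart. The part of these markers in the results below was not tested.

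The replicates of TGF-β stood apart for a group of these genes. The log2 difference between replicate 1 and replicate 2 had an SD over the 45 genes of 0.0649 in DMSO, 0.407 with TGF-β and 0.0794 with TGF-β+2APB. Over all tested genes it was 0.334, 0.567 and 0.78, so that the TGF-β+2APB replicates stood furthest apart there. Dkc1 was lowest in replicate 1 of TGF-β relative to replicate 2, with a log2 difference of -1.51, followed by Nop58 at -1.25, Taf1d at -1.12, Ncl at -0.63, Gnl3 at -0.54, Npm1 at -0.51, Noc3l at -0.46 and Gtpbp4 at -0.40. These 8 genes had longest transcripts of 40.2% to 46.3% GC (median 42.6%), against 40.4% to 59.9% (median 50.8%) for the other 37. Over the 45 genes, which share the same libraries, this difference and GC content had a Spearman correlation of 0.825 with TGF-β, -0.729 with TGF-β+2APB and -0.103 in DMSO. Over 13225 tested genes with an annotation it was 0.554, -0.253 and 0.142. The part of base composition in the TGF-β difference was not tested, and results that rest on these libraries are given with and without them.

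**Figure D1:**
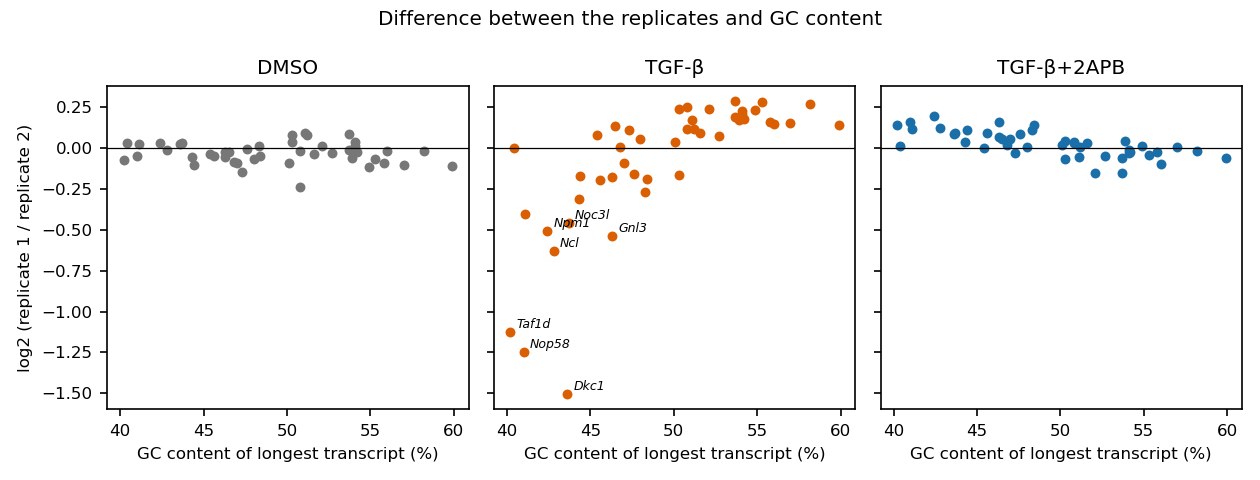
Log2 ratio of replicate 1 to replicate 2 (vertical axis) against the GC content of the longest transcript in percent (horizontal axis) for the 45 ribosome biogenesis genes, 1 point per gene and 1 panel per group. With TGF-β the genes of low GC content reach -1.51 (Dkc1), while all points of DMSO and TGF-β+2APB lie between -0.238 and 0.192.

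Most of the ribosome biogenesis genes rose after TGF-β, and most were also above DMSO when 2APB was added. Their summed share of all counts was 0.449% ± 0.00735 in DMSO, 0.601% ± 0.0646 with TGF-β and 0.664% ± 0.0138 with TGF-β+2APB (SD, n = 2 each). With TGF-β, 33 of 45 were called higher than in DMSO and 0 lower, where a call is an FDR (Benjamini-Hochberg) of at most 0.05 over all tested genes in the quasi-likelihood F-test of edgeR. Among all tested genes 21.8% were called higher and 19.7% lower. With TGF-β+2APB, 36 of 45 were called higher than in DMSO and 0 lower, against 25.6% and 27.2% of all tested genes. No member was lower than DMSO at an unadjusted p under 0.05 in edgeR or by DESeq2 in either comparison. The median log2 fold change of the 45 genes was 0.65 with TGF-β and 0.80 with TGF-β+2APB, beside -0.01 and -0.003 over all tested genes. Only Nop56 was called and passed a log2 fold change of 1 with TGF-β, while 8 of the 45 did with TGF-β+2APB. Among the 13353 tested genes 967 and 1282 did so. Both comparisons use the same DMSO libraries and are therefore not independent of each other.

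**Figure D2:**
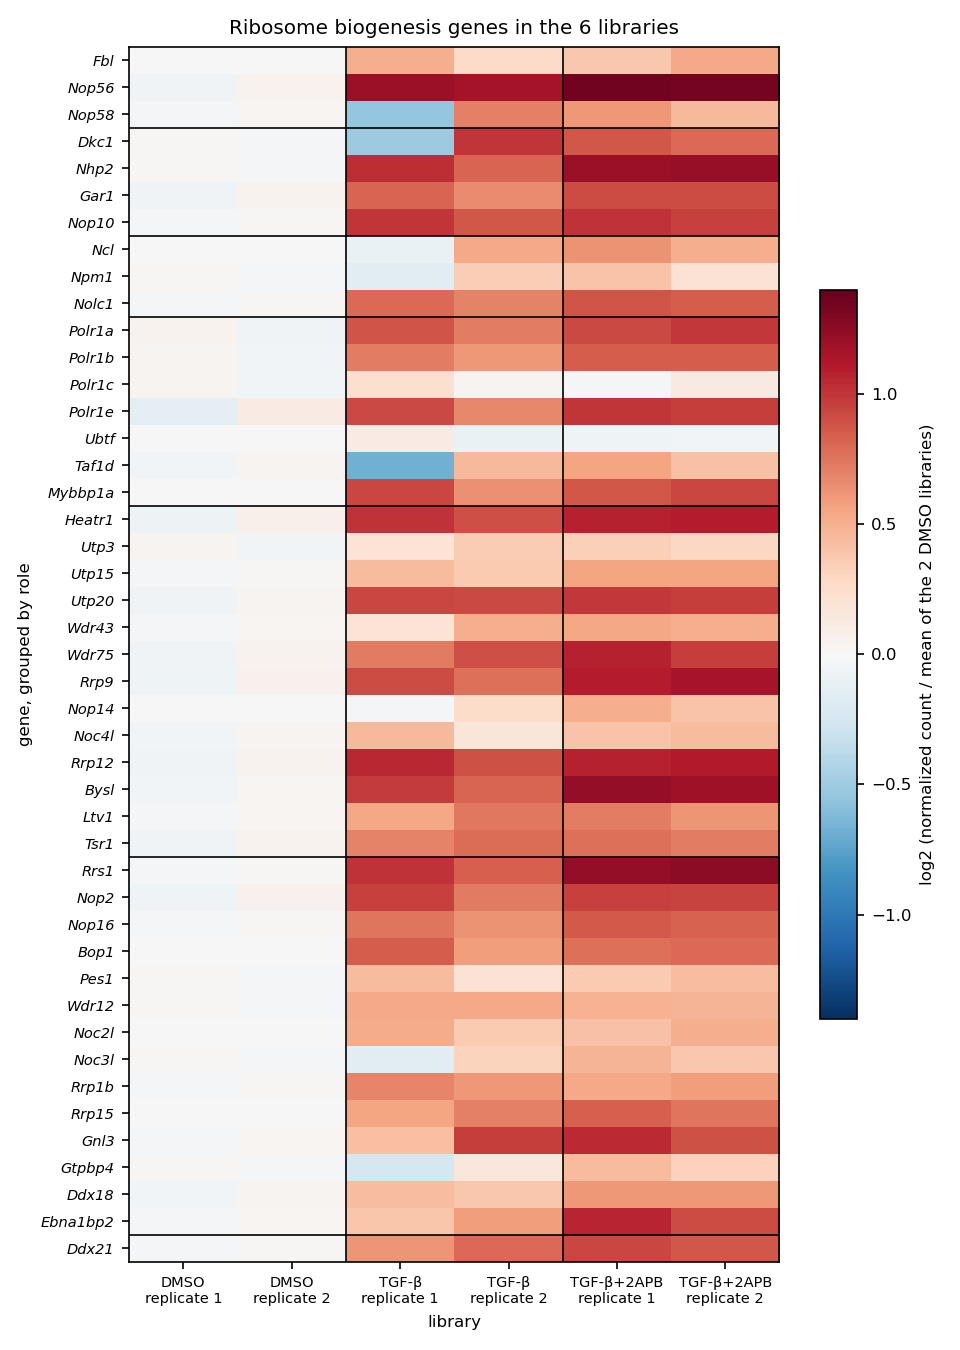
Normalized counts of the 45 genes (rows, grouped by role with black lines between roles) in the 6 libraries (columns), as log2 of the ratio to the mean of the DMSO libraries, red for higher and blue for lower. Most rows are red in all 4 treated libraries, Nop56 most of all, and the blue cells lie mainly in replicate 1 of TGF-β, as for Nop58, Dkc1 and Taf1d.

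Separation of the libraries gave a similar count. Both TGF-β libraries lay above both DMSO libraries for 35 of 45 genes, against 36.0% of all tested genes, and both TGF-β+2APB libraries did so for 43 of 45, against 42.3%. Both TGF-β libraries lay below DMSO for 0 of 45, against 36.5% of all tested genes, and both TGF-β+2APB libraries for 1, against 43.8%. The exceptions with TGF-β+2APB were Polr1c, whose groups overlapped, and Ubtf, whose treated libraries were below DMSO. By calls, 32 genes were higher with both treatments and not called between them. A missing call does not show equal levels, and some of the 32, such as Bysl and Rrs1, were called between the treatments by DESeq2. Ebna1bp2 was higher in all 3 comparisons. Wdr43, Nop14 and Noc4l were called higher than DMSO with TGF-β+2APB and not with TGF-β. For those 3 genes the direct comparison made no call (edgeR FDR 0.375, 0.0925 and 0.565). The other 9 genes, Nop58, Dkc1, Ncl, Npm1, Polr1c, Ubtf, Taf1d, Noc3l and Gtpbp4, were never called, and 7 of these 9 are among the 8 genes that were lowest in replicate 1 of TGF-β.

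**Figure D3:**
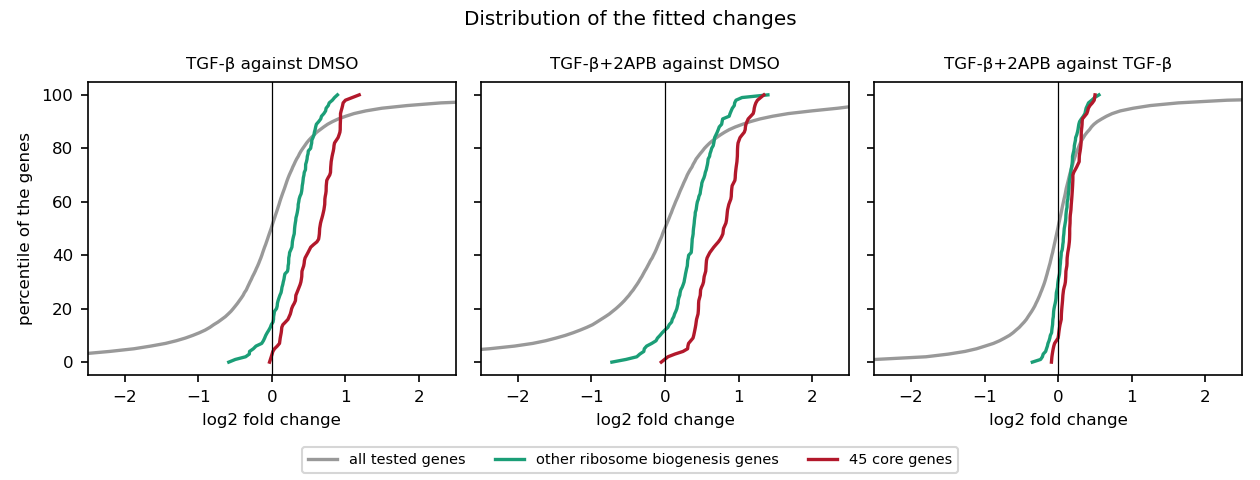
Percentile of the genes (vertical axis) against fitted log2 fold change (horizontal axis) for the 45 core genes, the other ribosome biogenesis genes and all tested genes, 1 panel per comparison. The core genes lie to the right of all tested genes in both comparisons with DMSO, with medians of 0.65 and 0.80, and closer to them in the direct comparison, with a median of 0.16.

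The box C/D proteins scaffold and catalyse the methylation of rRNA. Nop56, a scaffold protein encoded at chr2:130274430-130279313 (GRCm38, plus strand), was the member that changed most, with 7119 and 7584 normalized counts in the DMSO libraries, 16955 and 16523 after TGF-β, and 18782 and 18558 after TGF-β+2APB. All 4 treated libraries exceeded both DMSO libraries by far, and Nop56 rose 2.28-fold on TGF-β, a log2 value of 1.19 ± 0.0696 (SE, edgeR FDR 0.000166), and 2.54-fold on TGF-β+2APB, a log2 value of 1.34 ± 0.0699 (SE, edgeR FDR 7.09e-05). Fbl, the methyltransferase fibrillarin, had 8815 and 8760 in the DMSO libraries, 12473 and 10581 after TGF-β, and 11374 and 12651 after TGF-β+2APB. The treated libraries were again higher without overlap, and Fbl was 1.31-fold higher with TGF-β (edgeR FDR 0.0302) and 1.37-fold higher with TGF-β+2APB (edgeR FDR 0.0146). The call of Fbl with TGF-β was lost in 2 of 11 other fits (FDR up to 0.0624) and in 4 of the 6 that left out a library (up to 0.161). With TGF-β+2APB the call of Fbl held in all 11 but not in every fit that left out a library (log2 0.394 to 0.52). Nop58, the partner of Nop56, had 7516 and 7776 in the DMSO libraries, 5269 and 12509 after TGF-β, and 11639 and 10455 after TGF-β+2APB. Its TGF-β libraries lay on either side of DMSO, and neither comparison called it (edgeR FDR 0.675 and 0.282).

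The box H/ACA proteins form the pseudouridine synthase, with Dkc1 (dyskerin) as its catalytic subunit. Nhp2 had 3440 and 3353 normalized counts in the DMSO libraries, 6968 and 5964 after TGF-β, and 7852 and 7922 after TGF-β+2APB. Nop10 had 2245 and 2281, 4515 and 4123, and 4559 and 4394 in the same order. Gar1 had 1431 and 1539, 2604 and 2345, and 2797 and 2788. For these 3 partners the 4 treated libraries were all above DMSO, and Nhp2 also had both TGF-β+2APB libraries above both TGF-β libraries. Against DMSO they rose 1.90-fold, 1.91-fold and 1.67-fold with TGF-β (edgeR FDR 0.00103, 0.00046 and 0.00164) and 2.32-fold, 1.98-fold and 1.88-fold with TGF-β+2APB (edgeR FDR 0.000252, 0.00023 and 0.000492). Dkc1, at chrX:75095854-75109777 (GRCm38, plus strand), had 3005 and 2959 in the DMSO libraries, 2102 and 5972 after TGF-β, and 5466 and 5151 after TGF-β+2APB. Its TGF-β+2APB libraries were both well above DMSO, yet no call was made (log2 0.83 ± 0.445 SE, edgeR FDR 0.17) in a fit with 1 estimate of spread over the 3 groups.

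Among the nucleolar chaperones, Npm1 (nucleophosmin) had 75340 and 73788 normalized counts in the DMSO libraries, 66529 and 94819 after TGF-β, and 98278 and 86026 after TGF-β+2APB. Ncl (nucleolin) had 55691 and 56239, 52331 and 81089, and 86244 and 79434. In both, the TGF-β libraries fell on either side of DMSO while both TGF-β+2APB libraries were above it. Neither was called, with log2 fold changes of 0.31 ± 0.172 SE (Npm1, edgeR FDR 0.188) and 0.57 ± 0.199 SE (Ncl, edgeR FDR 0.0576) for TGF-β+2APB against DMSO. Npm1 has processed pseudogenes in the mouse genome, and how reads with several alignments were counted is not given in the sources used here, so its level is uncertain. Nolc1, which escorts snoRNPs through the nucleus, was called in both comparisons (log2 0.75 and 0.87).

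Of the 7 genes of RNA polymerase I transcription, 4 were called higher with TGF-β and with TGF-β+2APB. These were Polr1a and Polr1b, the catalytic subunits, Polr1e, a subunit that helps the enzyme to initiate and elongate, and Mybbp1a, a nucleolar protein that binds the enzyme. Polr1e had 419 and 494 normalized counts in the DMSO libraries, 867 and 728 after TGF-β, and 913 and 894 after TGF-β+2APB. Its treated libraries were above DMSO without overlap, by 1.75-fold (edgeR FDR 0.00631) and 1.98-fold (edgeR FDR 0.00214). Polr1a, Polr1b and Mybbp1a rose by log2 values of 0.80, 0.66 and 0.80 on TGF-β alone and 0.96, 0.85 and 0.90 with TGF-β+2APB.

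The other 3 genes of this role did not follow. Ubtf, the factor that opens the rRNA genes for transcription, had 12862 and 12762 normalized counts in the DMSO libraries, 13912 and 12055 after TGF-β, and 12245 and 12493 after TGF-β+2APB. Polr1c, a subunit shared with RNA polymerase III, had 3898 and 3682, 4439 and 3891, and 3720 and 4143. Taf1d, a subunit of the selectivity factor at the rRNA promoter, had 2634 and 2775, 1695 and 3696, and 3970 and 3597. Ubtf and Polr1c stayed within a narrow range, with log2 fold changes against DMSO of 0.019 ± 0.0881 SE and 0.14 ± 0.0983 SE for TGF-β and -0.051 ± 0.0881 SE and 0.053 ± 0.0983 SE for TGF-β+2APB (edgeR FDR 0.316 to 0.881). Taf1d was spread by the TGF-β replicates (edgeR FDR 0.992 and 0.277), and its TGF-β+2APB libraries were both above DMSO.

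The 13 genes of the small subunit processome and of late small subunit assembly were all called higher than DMSO with TGF-β+2APB, and 10 of them with TGF-β. Heatr1, a large scaffold of the processome, had 4192 and 4636 normalized counts in the DMSO libraries, 8883 and 8255 after TGF-β, and 9279 and 9490 after TGF-β+2APB. Utp20, another scaffold, had 6237 and 6630, 12317 and 12248, and 12750 and 12596. Both genes had about the same level with either treatment, and in TGF-β against DMSO they rose 1.94-fold (Heatr1, edgeR FDR 0.000665) and 1.91-fold (Utp20, edgeR FDR 0.000363). Rrp12, needed for export of subunit precursors, had 2805 and 2985, 6000 and 5375, and 6128 and 6245. Bysl, a late assembly factor, had 1720 and 1800, 3479 and 3096, and 4114 and 3999, so that for Bysl the 3 groups were ordered without overlap. Against DMSO Rrp12 rose 1.96-fold and 2.14-fold (edgeR FDR 0.000613 and 0.000244) and Bysl 1.87-fold and 2.31-fold (edgeR FDR 0.000753 and 0.000171).

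Of the remaining 9 small subunit genes, 6 were called in both comparisons with DMSO. Rrp9, a protein of the box C/D particle that directs early cuts of the precursor, rose by log2 0.84 with TGF-β and 1.13 with TGF-β+2APB, and the processome protein Wdr75 by 0.82 and 1.02. Tsr1 and Ltv1, which cap the late small subunit precursor, rose by 0.74 and 0.64 with TGF-β and by 0.74 and 0.67 with TGF-β+2APB. The processome proteins Utp15 and Utp3 rose least among those called in both comparisons, by 0.41 and 0.27 on TGF-β alone and by 0.55 and 0.31 on TGF-β+2APB. The call of Utp3 with TGF-β held in only 4 of 11 other fits (FDR up to 0.114) and in 2 of the 6 that left out a library (up to 0.258), and that with TGF-β+2APB in 9 of 11 (up to 0.0528) and 2 of 6 (up to 0.16). Wdr43, Nop14 and Noc4l had log2 values of 0.36, 0.13 and 0.32 with TGF-β, which were not called (edgeR FDR 0.0528, 0.378 and 0.0593). With TGF-β+2APB they rose by 0.52, 0.46 and 0.42. Those 3 calls held in all 11 other fits but not in every fit that left out a library. There the log2 values ran from 0.496 to 0.561, 0.397 to 0.531 and 0.382 to 0.453.

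Of the 14 genes of the large subunit pathway, 12 were called higher than DMSO with each treatment. Rrs1, which helps to load a small rRNA particle onto the large subunit precursor, had 1539 and 1568 normalized counts in the DMSO libraries, 3138 and 2779 after TGF-β, and 3651 and 3713 after TGF-β+2APB. Ebna1bp2, a factor of early large subunit assembly at chr4:118620799-118627776 (GRCm38, plus strand), had 2555 and 2647, 3409 and 3893, and 5425 and 4915. In both genes the 3 groups were ordered without overlap, DMSO lowest and TGF-β+2APB highest. Rrs1 rose 1.90-fold (edgeR FDR 0.000681) and 2.37-fold (edgeR FDR 0.000158) against DMSO, and Ebna1bp2 by log2 0.49 (edgeR FDR 0.00989) and 0.99 (edgeR FDR 0.000526).

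Wdr12, a partner of Pes1 and Bop1 in a complex that processes the rRNA of the large subunit, had 2258 and 2213, 3234 and 3229, and 3132 and 3102 normalized counts in the order DMSO, TGF-β, TGF-β+2APB. Rrp1b, a nucleolar protein of the same pathway, had 2335 and 2388, 3800 and 3609, and 3421 and 3538. For these 2 genes both TGF-β+2APB libraries were above DMSO but below both TGF-β libraries, with direct log2 differences of -0.052 ± 0.0627 SE and -0.091 ± 0.0666 SE (edgeR FDR 0.607 and 0.393). Gtpbp4, a GTPase of large subunit assembly, had 6748 and 6646, 5643 and 7458, and 9093 and 8379. Its TGF-β libraries lay on either side of DMSO and its TGF-β+2APB libraries above all others, but no comparison called it (edgeR FDR 0.875, 0.0648 and 0.102).

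The other large subunit genes rose in both comparisons apart from Noc3l, a transport partner of Noc2l, with log2 values of 0.10 with TGF-β and 0.43 with TGF-β+2APB (edgeR FDR 0.624 and 0.0591). With TGF-β, Nop2, an rRNA methyltransferase, rose by log2 0.85, Bop1 by 0.72, the GTPase Gnl3 (nucleostemin) by 0.72, Nop16 by 0.69, Rrp15 by 0.63, Noc2l by 0.44, the helicase Ddx18 by 0.41 and Pes1 by 0.33. With TGF-β+2APB the same genes rose by 0.95, 0.79, 0.97, 0.84, 0.80, 0.46, 0.61 and 0.40. The call of Pes1 with TGF-β held in 8 of 11 other fits (FDR up to 0.0855) and in 2 of the 6 that left out a library (up to 0.217). With TGF-β+2APB the call of Pes1 held in all 11 but not in every fit that left out a library (log2 0.385 to 0.43). Ddx21, a helicase that acts both in transcription by RNA polymerase I and in rRNA processing, had 12817 and 13041 normalized counts in the DMSO libraries, 19808 and 22383 after TGF-β, and 24718 and 23648 after TGF-β+2APB. The 3 groups of Ddx21 did not overlap, and it rose by log2 0.71 and 0.90 against DMSO.

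**Figure D4:**
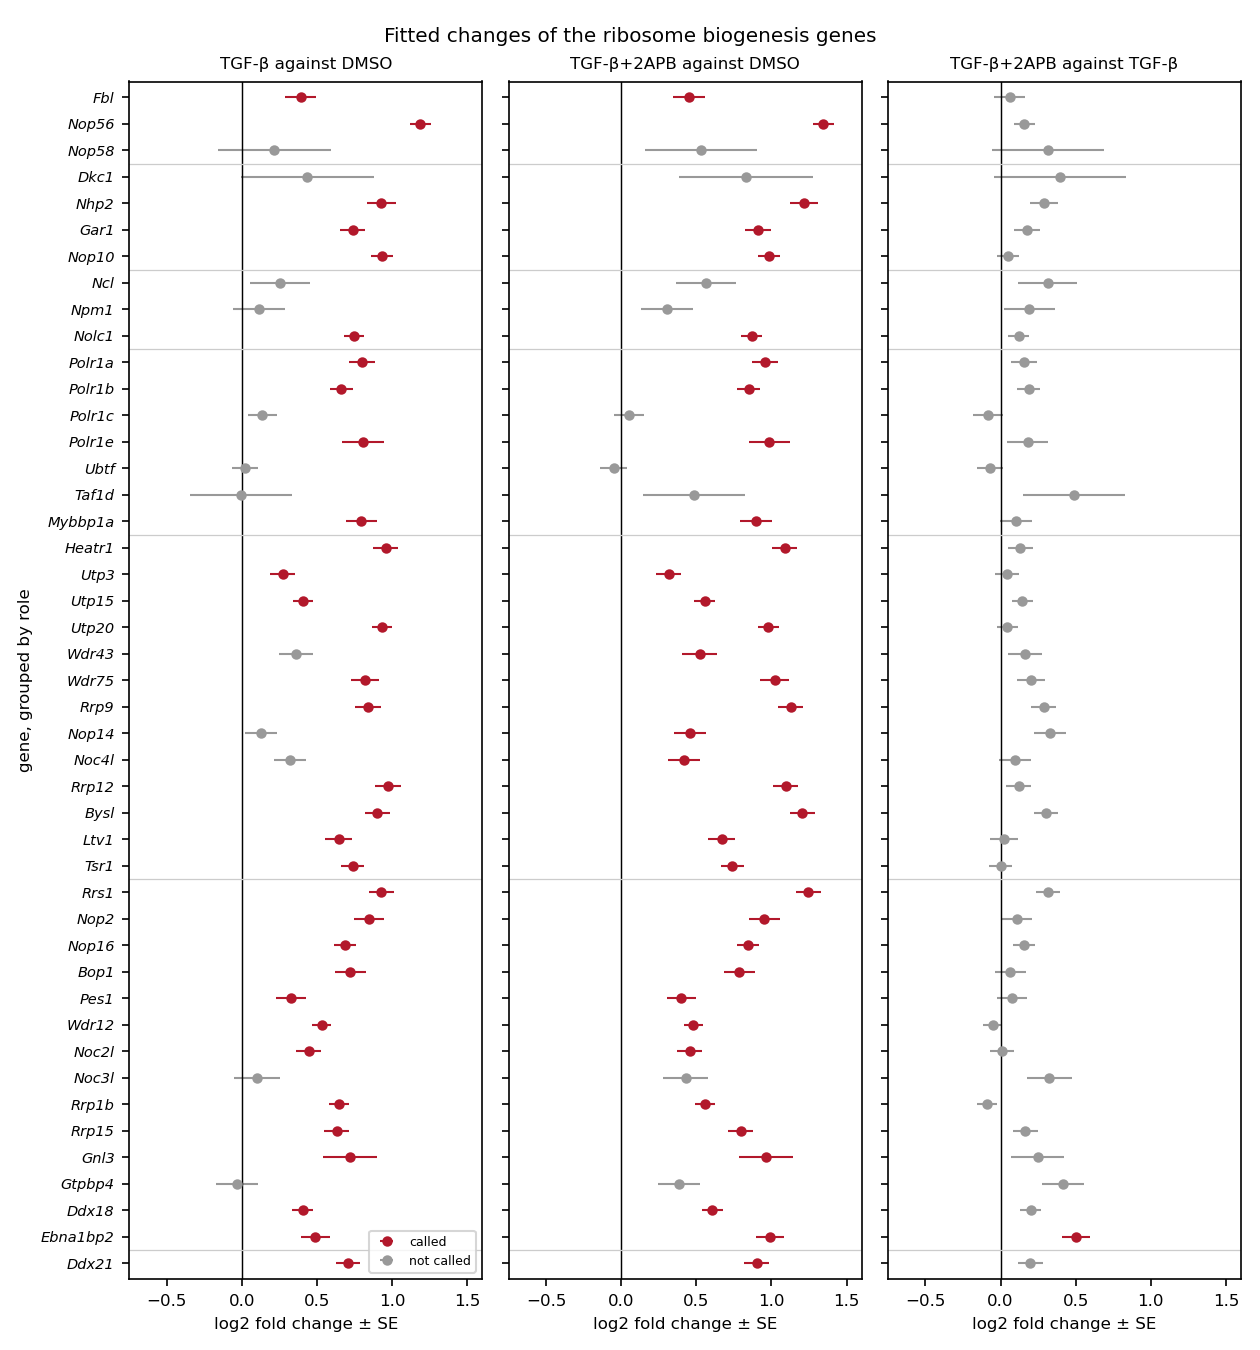
Fitted log2 fold change with its SE (horizontal axis) of each of the 45 genes (vertical axis, grouped by role) in the 3 comparisons, red where called at an FDR of 0.05 or less and grey otherwise. Red points fill the panels against DMSO, 33 and 36 genes, while in the direct comparison only Ebna1bp2 is red and the widest error bars belong to Dkc1, Nop58 and Taf1d.

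The direct comparison set TGF-β+2APB against TGF-β. Without a group of 2APB alone it cannot separate a change in the response to TGF-β from an effect of 2APB itself. Only Ebna1bp2 was called, 1.42-fold higher with TGF-β+2APB than with TGF-β, a log2 difference of 0.50 ± 0.0947 (SE, edgeR FDR 0.0212), and 0 genes were called lower, against 6.58% and 10.9% of all tested genes. At an unadjusted p under 0.05 in edgeR, 9 were higher and 0 lower, against 1871 and 2608 of the 13353 tested genes. DESeq2 called 10 higher and 0 lower. Among all 13353 tested genes it called 3698 in either direction, with 12.5% called higher. The 10 genes were Nop56, Nhp2, Polr1b, Rrp9, Nop14, Bysl, Rrs1, Gtpbp4, Ddx18 and Ebna1bp2. The median log2 difference of the 45 genes was 0.16, beside -0.004 over all tested genes. Values above 0 were found for 41 of 45, against 49.4% of all tested genes. Both TGF-β+2APB libraries lay above both TGF-β libraries for 23 of the 45 genes, against 27.0% of all tested genes, and below them for 2, Wdr12 and Rrp1b, against 31.0%. Taf1d, Gtpbp4 and Dkc1 had the next largest differences, log2 0.49, 0.42 and 0.40, with SEs of 0.338, 0.14 and 0.442, and were not called (edgeR FDR 0.365, 0.102 and 0.575). The call of Ebna1bp2 held in 9 of the 11 other settings (FDR 0.000161 to 0.0719) and in 2 of the 6 fits that left out 1 library (0.00496 to 0.137).

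Leaving out a TGF-β library moved the calls of these genes. Without TGF-β replicate 1, 42 of 45 were called higher than DMSO with TGF-β, against 27.1% of all tested genes, the added genes being Nop58, Dkc1, Ncl, Npm1, Taf1d, Wdr43, Nop14, Noc4l and Noc3l. In this order they have 41.0%, 43.6%, 42.8%, 42.4%, 40.2%, 44.3%, 48.3%, 55.3% and 43.7% GC. Without that library the log2 fold change of Noc4l went down to 0.18, and that of Wdr12, at 40.4% GC, hardly moved. The part of base composition in these changes was not tested. Without TGF-β replicate 2, 35 were called higher (29.2% of all tested genes) and 4 lower (28.2%), the latter being Nop58, Dkc1, Taf1d and Gtpbp4. Dkc1 alone went from a log2 fold change of 1.01 without replicate 1 (edgeR FDR 0.000346) to -0.51 without replicate 2 (edgeR FDR 0.00179), so its direction with TGF-β rests on the library used. In the direct comparison the median log2 difference of the 45 genes ran from 0.116 to 0.178 over the fits that left out 1 library. With all libraries it was 0.158. Among these fits is the one without TGF-β+2APB replicate 2, the library with its macrophage markers. Without that library the median log2 fold change of the 45 genes for TGF-β+2APB against DMSO was 0.858, beside -0.004 over all tested genes. The part of the macrophage markers in these values was not tested. The lone TGF-β sample is assumed in these fits to vary like the other groups. With the counts corrected for GC content, 35 (26.4% of all tested genes), 43 (31.6%) and 4 (8.87%) of the 45 genes were called higher in the 3 comparisons, and the 4 of the direct comparison were Rrs1, Noc3l, Gtpbp4 and Ebna1bp2.

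Levels differed widely between the genes. Per kb of exon, and over all libraries, Npm1 was highest with a mean of 30900 normalized counts per kb, followed by Ncl at 6720, Nhp2 at 5160, Mybbp1a at 5110 and Ddx21 at 3750. The lowest were Polr1e at 185, Wdr12 at 239 and Taf1d at 342. In DMSO, Nhp2 at 2960 ± 53.4 normalized counts per kb (SD, n = 2) was close to Pes1 at 2910 ± 47.3, and below Mybbp1a at 3330 ± 21.7. With TGF-β, Nhp2 at 5640 ± 619 and Mybbp1a at 5790 ± 813 did not differ beyond their spread, while Pes1 was at 3640 ± 425. The median of the 45 genes was 1310 normalized counts per kb, beside 458 over annotated tested genes. With the length of the longest transcript in place of the union of exons, Npm1 and Ncl remained the highest and Polr1e, Wdr12 and Taf1d the lowest, but Fbl moved from rank 14 to rank 5, ahead of Ddx21. The level of Npm1 became 50500 normalized counts per kb and that of Gnl3 went from 648 to 1750, so levels between genes depend on the length used.

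**Figure D5:**
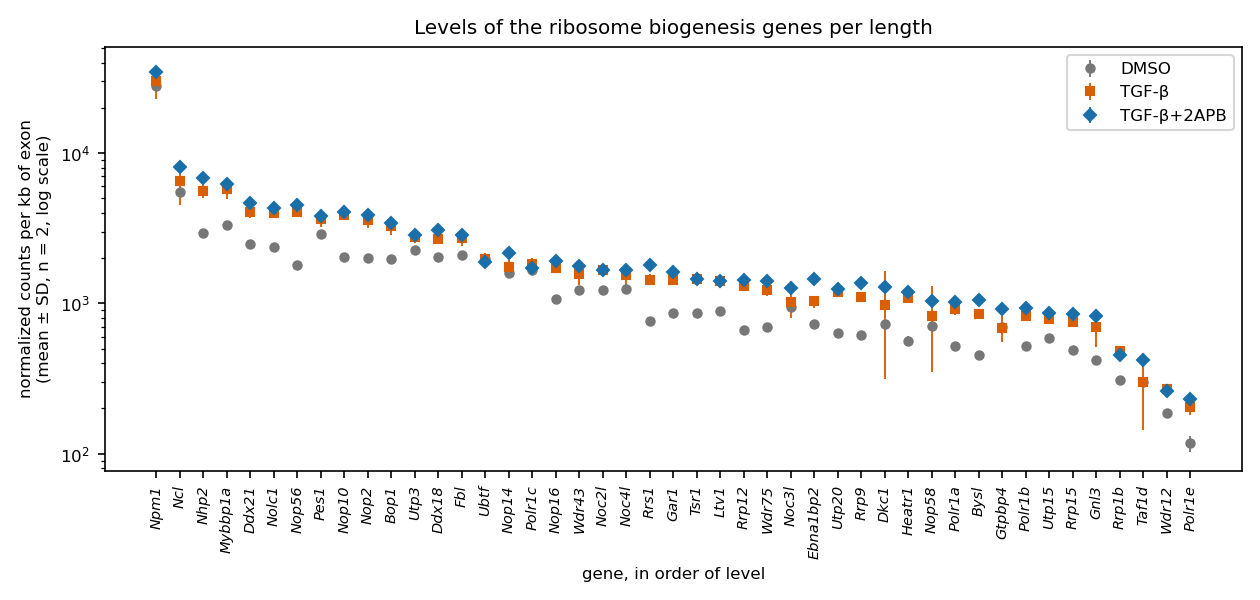
Normalized counts per kb of exon (vertical axis, log scale) of the 45 genes (horizontal axis, in order of their mean) in DMSO, TGF-β and TGF-β+2APB, as mean and SD of 2 libraries. Npm1 stands alone at the top, Polr1e is lowest, and most genes show DMSO below both treatments.

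The pathway beyond the 45 genes had smaller median changes. Of 137 further ribosome biogenesis genes, 136 were tested, and 67 were called higher (49.3%, against 21.8% of all tested genes) and 3 lower (2.21%, against 19.7%) with TGF-β. With TGF-β+2APB 85 were higher (62.5%, against 25.6%) and 7 lower (5.15%, against 27.2%). Between the treatments 3 were higher (2.21%, against 6.58%) and 0 lower, against 10.9% (3 lower at an unadjusted p under 0.05 in edgeR, 1 lower by DESeq2). Their median log2 fold changes were 0.31, 0.39 and 0.084. The largest rises with TGF-β were Nol10 (0.89), Rcl1 (0.86) and Cd3eap (0.84), a subunit of RNA polymerase I, and the largest falls were Pop5 (-0.59), a subunit of the RNase that processes tRNA and rRNA, Nol7 (-0.55) and Polr1d (-0.34). With TGF-β+2APB they were Cd3eap (1.399), Nol10 (1.08) and Tbl3 (0.98), and Pop5 (-0.72), Nol7 (-0.58) and Ddx55 (-0.44). In the direct comparison Cd3eap (0.56), Aatf (0.41) and Sdad1 (0.34) were the 3 called.

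Of 10 tested snoRNA host genes, whose introns hold guide RNAs of the snoRNPs, 5 were called higher with TGF-β, beside 21.8% of all tested genes, and 7 with TGF-β+2APB, beside 25.6%, 0 were lower (0 at an unadjusted p under 0.05 in edgeR, 0 by DESeq2) and none was called between the treatments (0 and 0 likewise). Gas5, Snhg1, Snhg4, Snhg5 and Snhg8 were called in both, with log2 values of 0.61, 0.52, 0.97, 0.84 and 0.53 for TGF-β, and Snhg6 and Snhg12 with TGF-β+2APB, at 0.42 and 0.32, and not with TGF-β, at 0.34 and 0.21. In the MYC network, 5 of 12 genes were called higher (41.7%, against 21.8% of all tested genes) and 2 lower (16.7%, against 19.7%) with TGF-β. With TGF-β+2APB 3 were higher and 3 lower, 25.0% each, near the 25.6% and 27.2% of all tested genes. Myc itself had 5690 and 5640 normalized counts in the DMSO libraries, 13096 and 13117 after TGF-β, and 14688 and 14505 after TGF-β+2APB, and its groups did not overlap. Myc rose by log2 1.21 ± 0.0647 SE (edgeR FDR 0.000131) and 1.37 ± 0.0649 SE (edgeR FDR 5.75e-05) against DMSO, and by edgeR its direct difference of 0.16 ± 0.0636 SE was not called (FDR 0.154). Max, the partner of MYC, rose by 0.30 and 0.40. Mycl (1.69) and Mlxip (0.22) were called higher with TGF-β and not with TGF-β+2APB, and their direct differences of -1.07 and -0.097 were not called (edgeR FDR 0.0701 and 0.37). The genes for competitors of MYC went different ways. Mxd1 (-0.98 and -1.59) and Mxd4 (-0.51 and -0.80) fell against DMSO with both treatments and Mxd3 fell by 1.45 with TGF-β+2APB, while Mxi1 rose by 0.52 and 0.84 and Mnt was not called (-0.024 and 0.024, edgeR FDR 0.849 and 0.835). In the direct comparison Mxd1 and Mxd3 were called lower, at -0.60 and -1.26, which is 16.7% of the 12 genes against 10.9% of all tested genes. In that comparison 0 genes of the network were called higher, against 6.58% (1 at an unadjusted p under 0.05 in edgeR, 2 by DESeq2).

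Because many of these genes rose together, their promoters were searched for 4 short motifs on both strands, in RefSeq windows from 250 bases before to 50 after the gene start (GRCm38.p6). Windows were matched for 40 of the 45 genes, 49 windows in all, and not for Fbl, Npm1, Rrp12, Rrs1 and Bop1. CCGGAAG, the core of sites bound by ETS factors, was found in 15 windows of 14 genes, 30.6% against 8.86% of all 32851 windows. CACGTG, the E-box bound by MYC with MAX, was found in 7 windows, 14.3% against 7.15%. CCAAT was found in 13, 26.5% against 37.4%, and GCGCATGC, the site of NRF1, in 1, 2.04% against 2.71%. A match is a description of letters and not evidence of binding. When only the 250 bases before the start were searched, CCGGAAG was in 16.3% of these windows against 6.91% of all, and CACGTG in 2.04%, Nop2 only, against 6.02%. Shown here are 60 bases from before the start for 5 genes with CCGGAAG, given in capitals on either strand, to set Gar1, Nolc1, Nop2 and Utp3, which were called higher than DMSO with both treatments, beside Polr1c, which was not.
Gar1: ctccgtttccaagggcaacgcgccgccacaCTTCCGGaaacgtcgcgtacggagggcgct
Nolc1: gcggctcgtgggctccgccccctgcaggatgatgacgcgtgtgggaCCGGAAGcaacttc
Nop2: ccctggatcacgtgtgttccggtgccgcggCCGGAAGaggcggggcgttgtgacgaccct
Utp3: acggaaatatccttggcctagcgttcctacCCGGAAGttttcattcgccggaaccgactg
Polr1c: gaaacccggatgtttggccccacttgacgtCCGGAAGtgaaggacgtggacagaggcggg
They lie, in this order, at chr3:129831410-129831469 (minus strand), chr19:46075787-46075846 (plus), chr6:125131815-125131874 (plus), chr5:88554294-88554353 (plus) and chr17:46248058-46248117 (minus). The capitals start 43, 14, 38, 138 and 42 bases before the gene start. The 5 stretches hold the same motif, while the log2 fold changes of the genes with TGF-β were 0.74, 0.75, 0.85, 0.27 and 0.14.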

How the data were processed

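The deposited values are raw read counts per gene, which the authors made by aligning reads with TopHat2 2.0.13 after FastQC 0.11.2 and counting with featureCounts, with no scaling between libraries. The submitters' notes name mm10, the methods hg19, while the symbols are those of mouse. The annotation, strand setting and treatment of reads with several alignments are not given in the sources used here, so antisense reads could not be told apart. Every count was even. Of 18512 names 25 read as dates, and 98.7% of entries matched a GENCODE annotation of GRCm38 by symbol.

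Counts were analysed with edgeR 4.0.16 in R 4.3.3 (TMM, quasi-likelihood, 3 groups in 1 fit, a mean normalized count of 20 or more per gene). The coefficient of variation between replicates was 17.4%. DESeq2 1.42.0, other scalings, no filter, a replicate block, halved counts, fits of 4 libraries, stricter thresholds, a loess GC correction (span 0.5) and each library left out were alternatives. The procedure was tested on simulated data. Values in every library were given for up to 4 genes with the largest positive and the largest negative change per comparison, the extremes per kb, the snoRNP core, Ncl and Npm1, which makes 22 genes. Ddx21 and Myc were added after their values were seen. Tables and plots used pandas 2.3.3 and matplotlib 3.10.9 in Python 3.11.15.

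The 45 genes, the lists and the alternatives were chosen with earlier results of these data known. The markers were checked as sums over each list, with calls and values of single markers given beside the sums.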

Additional observations from a re-analysis of the deposited data

How the results depend on the processing

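With 2 libraries per group, most counts of calls against DMSO kept within 1.5 times of the reported value and the direct comparison did not. Its 1 called gene became 3 with RLE scaling, 2 by library size, 10 by DESeq2 with or without the prior, 0 with the replicate block, 0 with only the 4 libraries compared, 2 with halved counts, 4 with the GC correction, 2 with that correction and the block, and 0 at an FDR of 0.01. Over all tested genes 2334 were called in the direct comparison. This became 2374 with RLE scaling, 2683 by library size, and 3698 and 3651 by DESeq2 without and with the prior. It became 1342 with the replicate block, 878 with the 4 libraries and 2408 with halved counts. With the GC correction it was 2959, and 2231 with the block added. Requiring a log2 fold change of 1 left 1, 8 and 0 of the 45 genes. Their median log2 fold change moved to 0.732 by library size (TGF-β+2APB against DMSO), and to 0.701, 0.88 and 0.201 with the GC correction (0.2 in the direct comparison with the block added). The labels do not say whether the replicate numbers pair the samples. Correlations of replicate differences between the groups (0.148, -0.458 and -0.255) cannot settle this. The replicate block gave 30, 36 and 0 of the 45 genes, beside 4737, 6358 and 1342 of all tested genes. With the TGF-β+2APB numbers exchanged the block gave 33, 39 and 1, beside 5706, 7232 and 2465 of all tested genes.

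Among the other ribosome biogenesis genes, 7, 8, 5, 1 and 5 were lower with TGF-β by library size, DESeq2 (with or without the prior), the exchanged block, the 4 libraries and the GC correction. Their direct calls were 17 by DESeq2 (16 higher, 1 lower), 10 with the GC correction (9 higher, 1 lower), 5 with the block added (1 lower), 1 with the block, 1 with the 4 libraries, 1 at an FDR of 0.01, and 1 lower by library size. At an FDR of 0.01 there were 42 (41 higher, 1 lower) with TGF-β and 55 (53 higher, 2 lower) with TGF-β+2APB, and past a log2 fold change of 1 there were 0, 2 and 0. The snoRNA host genes called fell to 2 and 3 at an FDR of 0.01 and to 0 and 1 past a log2 fold change of 1, and the MYC network to 4 with TGF-β at an FDR of 0.01 (3 higher, 1 lower) and to 2, 3 and 1 past a log2 fold change of 1, with direct calls of 5 by DESeq2 (2 higher), 1 without a filter, 1 with the block and 0 at an FDR of 0.01.

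Leaving out each library in turn gave 24 to 42, 29 to 43 and 0 to 18 called genes of the 45, with 0 to 4 lower with TGF-β, 0 to 17 higher and 0 to 1 lower in the direct comparison, and medians of 0.552 to 0.674, 0.783 to 0.858 and 0.116 to 0.178. The lowest counts against DMSO came without DMSO replicate 1, a fit in which calls over all tested genes fell as well. In the direct comparison, calls over all tested genes rose without a TGF-β library and fell without any other library. The other biogenesis genes gave 21 to 100 (21 to 90 higher, 0 to 14 lower), 43 to 117 (41 to 107 higher, 1 to 10 lower) and 0 to 45 (0 to 34 higher, 0 to 11 lower). The snoRNA hosts gave 2 to 7, 2 to 8 and 0 to 2, and the MYC network 2 to 9 (1 to 6 higher, 1 to 3 lower), 5 to 8 and 1 to 5 (0 to 1 higher, 1 to 4 lower).

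Among the genes given by library, log2 values changed sign in comparisons that had made no call for them, and genes not given by library did so too. In the fits that left out a TGF-β library, some of the turned values were themselves called, as for Dkc1 (-0.505, edgeR FDR 0.00179), Nop58 (-0.537, 0.0048) and Taf1d (0.457, 0.0095) with TGF-β. With TGF-β, Gtpbp4 went to 0.18 with the GC correction (0.179 with the block) and ran from -0.247 to 0.162 over left-out libraries, Taf1d to 0.173 and 0.16 and to 0.012 with 4 libraries (-0.674 to 0.457), and Ubtf to -0.011 by library size (-0.082 to 0.119). Ranges over left-out libraries with TGF-β were -0.505 to 1.008 for Dkc1, -0.164 to 0.353 for Npm1, -0.537 to 0.716 for Nop58 and -0.097 to 0.541 for Ncl. With TGF-β+2APB against DMSO, Ubtf went to 0.002 with the GC correction (0.001 with the block) and Polr1c to -0.01 by library size (-0.005 to 0.123). In the direct comparison the ranges were -0.17 to 0.039 (Ubtf), -0.168 to 1.337 (Dkc1), -0.175 to 0.016 (Polr1c), -0.039 to 0.47 (Npm1), -0.054 to 0.184 (Fbl), -0.177 to 1.068 (Nop58) and -0.012 to 0.121 (Nop10). The replicate block ended the calls of Fbl (FDR 0.0624), Utp3 (0.0885) and Pes1 (0.0729) with TGF-β. The cause of these changes was not tested. The median level of the 45 genes was 1700 per kb with the longest transcript, and CCAAT was in 22.4% of the windows before the start.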
